A study of Mus musculus with 8 samples.

Results

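The genes of sterol and fatty acid synthesis were followed in mouse embryonic stem cells that carry or lack β-catenin, each with or without inhibition of the kinase GSK3. The group was set by name: 18 enzymes of cholesterol synthesis, 6 regulators of the pathway and 8 enzymes of fatty acid synthesis, 32 of the 48440 genes in the count table. All 32 were found, each on 1 row, and all 32 passed the filter on low counts, which 17739 genes passed; 31 of them were above 10 CPM in every library. The cells were of the 129/Ola background, from blastocysts, and were grown without feeder cells on gelatin in medium with serum. Parental cells (CTNNB1+/+) and β-catenin knock-out cells (CTNNB1-/-) were kept for 72 hours with CHIR99021 at 3 μM, an inhibitor of GSK3, or, as the vehicle control, with DMSO (0.3 μl/ml). Messenger RNA of 2 libraries per group, 8 in all, was sequenced. The labels name 1 parental and 1 knock-out line, so genotype and line cannot be told apart. Nor do they state whether a group's 2 libraries came from different cultures; p-values therefore reflect only how far these libraries spread, and that spread may be technical.

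Cholesterol is built from acetyl-CoA. The mevalonate enzymes make the isoprenoid building blocks, farnesyl diphosphate is joined into squalene, and squalene is closed to lanosterol and trimmed to cholesterol. The genes of the pathway are switched on together by SREBP transcription factors, above all SREBP2, which bind their promoters with helper factors such as NF-Y. SREBP is held in the endoplasmic reticulum by SCAP and INSIG while sterols are plentiful and is cut and released when they are scarce. SREBP1 has more weight on fatty acid genes. As background, GSK3 is known to phosphorylate nuclear SREBP, which marks it for destruction through FBXW7, and to mark β-catenin for destruction as well.

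The knock-out label held in the transcript, with Ctnnb1 at 813.4 to 905.6 CPM (counts scaled to a common library size) in the 4 parental libraries and 7.98 to 10.72 CPM in the 4 knock-out libraries. Library totals ran from 23650572 to 27680649 estimated counts. All 10 stem cell markers checked, Pou5f1, Sox2 and Nanog among them, were above 1 CPM in every library and summed to 5554 to 6254 CPM. The 4 hepatocyte markers and the 5 adipocyte markers, cell types known for heavy lipid synthesis, were all below 1 CPM, with sums of at most 0.083 and 0.834 CPM. Alb, Apoc3 and Serpina1a were at 0 throughout.

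RefSeq promoters on GRCm38.p6, from 250 bases before to 50 after the start, were found for 25 of the 32 genes. Fdps, Fdft1, Sqle, Stard4, Scd1, Scd2 and Fads1 had no entry. The promoters found were searched on both strands for the NF-Y box CCAAT, the sterol regulatory element TCACNCCAC, the E-box CACGTG and the TCF/LEF motif CTTTGAT. The promoters of the 5 genes whose response to CHIR99021 differed between the lines (results further on) and which have an entry are shown as far as the earliest start annotated by RefSeq or GENCODE, with every match in capitals; positions are counted from the RefSeq start. On the strand shown an NF-Y box reads CCAAT or ATTGG, and the E-box reads the same on both strands. The regions are chr13:119690101-119690350, plus strand (Hmgcs1), chr10:76531355-76531587, plus strand (Lss), chrX:8193513-8193762, minus strand (Ebp), chr5:28071162-28071362, plus strand (Insig1) and chr11:120824548-120824797, minus strand (Fasn).
Hmgcs1: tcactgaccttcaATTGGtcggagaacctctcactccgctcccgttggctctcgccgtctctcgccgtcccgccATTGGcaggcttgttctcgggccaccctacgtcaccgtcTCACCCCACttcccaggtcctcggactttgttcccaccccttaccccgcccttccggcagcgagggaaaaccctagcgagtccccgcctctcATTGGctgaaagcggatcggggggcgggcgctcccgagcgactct
Lss: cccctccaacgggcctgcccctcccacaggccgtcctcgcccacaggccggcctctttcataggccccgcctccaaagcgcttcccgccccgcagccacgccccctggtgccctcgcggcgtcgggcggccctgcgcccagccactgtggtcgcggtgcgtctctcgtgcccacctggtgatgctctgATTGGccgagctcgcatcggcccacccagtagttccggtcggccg
Ebp: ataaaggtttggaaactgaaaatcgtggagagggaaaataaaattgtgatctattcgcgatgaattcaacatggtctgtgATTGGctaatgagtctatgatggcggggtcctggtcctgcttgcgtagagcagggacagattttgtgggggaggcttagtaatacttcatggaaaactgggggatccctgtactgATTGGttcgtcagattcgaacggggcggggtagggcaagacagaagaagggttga
Insig1: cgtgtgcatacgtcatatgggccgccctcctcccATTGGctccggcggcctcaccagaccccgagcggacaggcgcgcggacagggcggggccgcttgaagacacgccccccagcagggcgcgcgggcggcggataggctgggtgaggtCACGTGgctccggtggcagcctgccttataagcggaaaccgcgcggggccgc
Fasn: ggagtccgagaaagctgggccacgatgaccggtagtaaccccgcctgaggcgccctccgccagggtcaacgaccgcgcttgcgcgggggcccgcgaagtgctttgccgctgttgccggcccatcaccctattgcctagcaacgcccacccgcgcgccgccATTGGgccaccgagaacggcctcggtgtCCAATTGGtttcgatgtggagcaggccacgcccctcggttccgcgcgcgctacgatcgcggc

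Each of these promoters holds at least 1 NF-Y box. Hmgcs1 also has the sterol regulatory element TCACCCCAC, starting 137 bases before the start, and Insig1 an E-box starting 101 bases before it. In Fasn a pair of NF-Y boxes on opposite strands overlap. Of the sterol enzyme genes, 14 of 15 with an entry had an NF-Y box, 93.3% beside 41.1% of all 27025 genes in the promoter table. Counted by promoter, these were 14 of 18, or 77.8%, beside 37.4% of all 32851 promoters. Acat2 was the gene without one. Among the regulators 4 of 5 had it and among the fatty acid enzymes 2 of 5. The sterol regulatory element in this spelling stood in 1 of 25 promoter sets, that of Hmgcs1, beside 1.44% of all genes, and the E-box in 5 of 25, 20.0% beside 8.09%. No match to the TCF/LEF motif was found in the 25 genes, beside 4.29% of all genes. These counts describe letters in a window and are no evidence of binding.

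**Figure D1:**
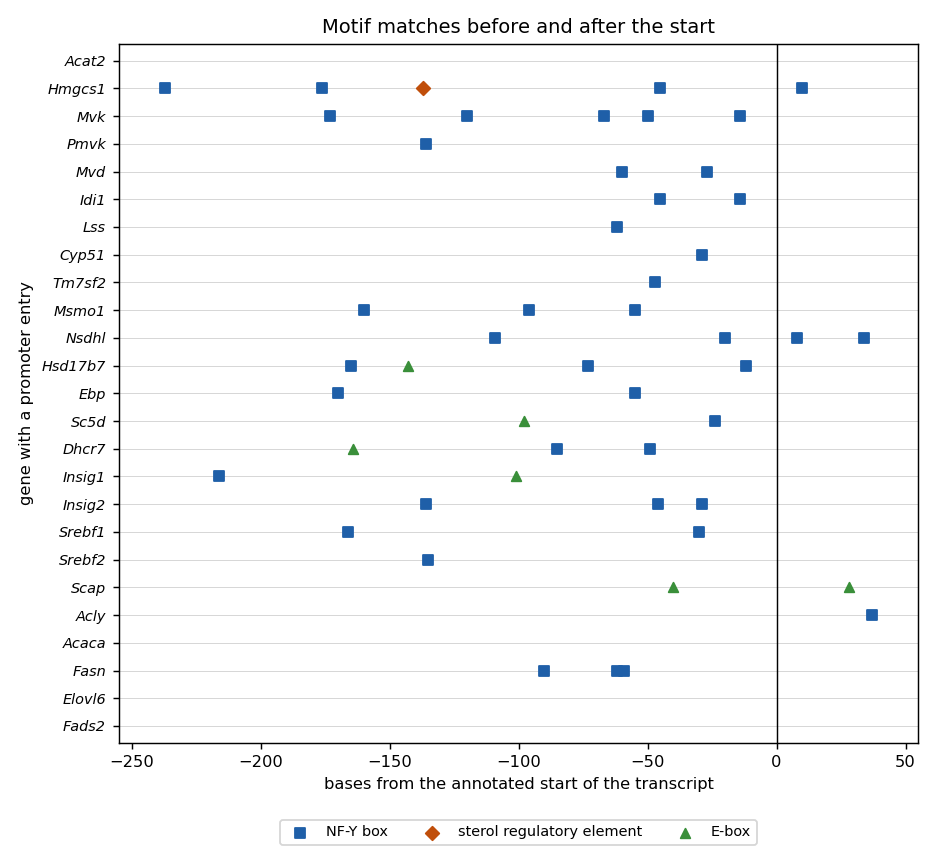
Position of each motif match in the promoters of the 25 genes with an entry, in bases from the annotated start of the transcript (x axis), 1 line per gene with all its promoters overlaid. NF-Y boxes (squares) lie on every sterol enzyme shown from Hmgcs1 to Dhcr7, the sterol regulatory element (diamond) on Hmgcs1 alone, and E-boxes (triangles) on 5 genes. Fdps, Fdft1 and Sqle have no entry and are not shown.

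The summed level of the sterol enzymes was highest in parental cells with CHIR99021 and lowest in knock-out cells with CHIR99021. Summed over the 18 enzymes, the level was 1261 and 1216 CPM in the parental libraries with DMSO, 1438 and 1416 with CHIR99021, 1177 and 1160 in the knock-out with DMSO and 1080 and 1103 with CHIR99021. For 15 of the 18 enzymes both parental CHIR99021 libraries stood above all other 6, as they did for 15.3% of all genes tested. Acat2, Mvk and Mvd were the exceptions. For 9 of the 18 both knock-out CHIR99021 libraries stood below all other 6, beside 9.34% of all genes. The 6 regulators summed to 404 and 409.5, 451.7 and 436.5, 421.5 and 408.2, and 392.7 and 380.3 CPM in the same order of groups, and the 8 fatty acid enzymes to 2080 and 2053, 2280 and 2283, 1988 and 1943, and 1861 and 1792 CPM. In bulk RNA, a change in the share of a cell type and a change in RNA per cell cannot be told apart.

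**Figure D2:**
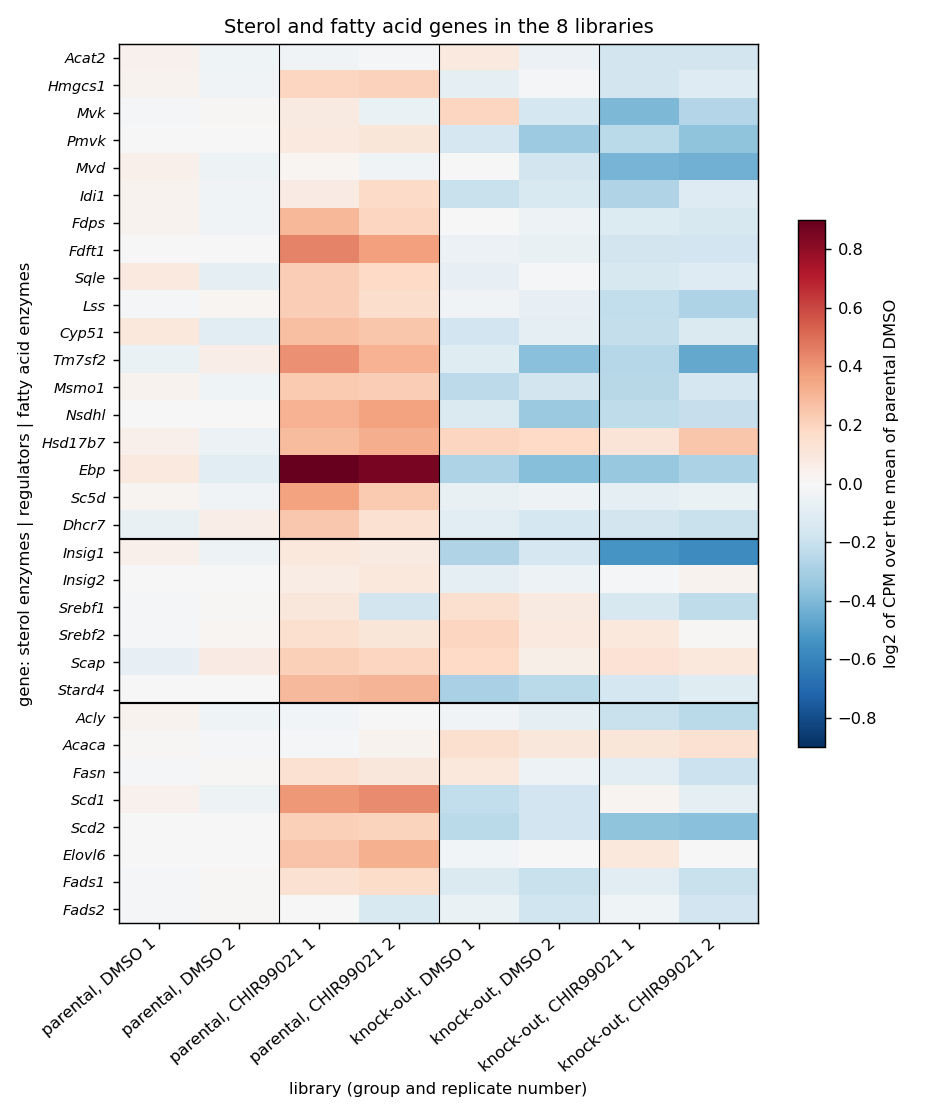
Level of each of the 32 genes (rows) in each of the 8 libraries (columns), as log2 of CPM over the mean of the 2 parental DMSO libraries; lines separate the sterol enzymes, the regulators and the fatty acid enzymes. Red cells lie above and blue cells below that mean: Ebp stands out above it in parental cells with CHIR99021 (42.18 and 39.85 CPM) and Insig1 below it in the knock-out with CHIR99021 (40.74 and 39.77 CPM).

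The response of cells with intact β-catenin came first. CHIR99021 raised 13 of the 18 sterol enzymes in parental cells and lowered none, where 19.4% of all 17739 genes were called, 9.1% higher and 10.3% lower (edgeR quasi-likelihood test, adjusted p under 0.05 over all genes tested). The median log2 fold change of the 18 was 0.21, beside 0.004 over all genes. The changes were small: Ebp rose 1.86-fold, and the other 12 called enzymes by log2 fold changes of 0.19 to 0.41. All 12 enzymes from Fdps to Dhcr7, which make farnesyl diphosphate and carry it on to cholesterol, rose, but of the 6 before them only Hmgcs1 passed. That division of the pathway was chosen after the values were seen. Other comparisons did not show it as clearly. Between the lines in CHIR99021 both stretches were lower in the knock-out, with medians of -0.34 before Fdps and -0.43 from Fdps on. The medians of the knock-out response minus the parental response were -0.23 and -0.32. Of the regulators 1 of 6 rose, Stard4, and of the fatty acid enzymes 3 of 8, Scd1, Scd2 and Elovl6. None of the 32 fell. DESeq2 called 7 of the 18 sterol enzymes and lost Sqle, Lss, Tm7sf2, Hsd17b7, Sc5d and Dhcr7 (adjusted p 0.0845 to 0.207).

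Some of these calls depended on 1 library or on the settings of the fit. The calls of Fdps, Fdft1, Nsdhl, Ebp, Stard4, Scd1, Scd2 and Elovl6 held under all 13 alternatives tried. Without parental DMSO replicate 2 the calls of Hmgcs1, Sqle, Lss, Cyp51, Tm7sf2, Msmo1, Hsd17b7 and Sc5d were lost (adjusted p 0.0521 to 0.259), which left 5 sterol enzymes. Also 5 were left without parental CHIR99021 replicate 1, where Sqle, Lss, Cyp51, Tm7sf2, Msmo1, Hsd17b7, Sc5d and Dhcr7 were lost (0.052 to 0.256). Leaving out parental CHIR99021 replicate 2 cost the calls of Sqle, Cyp51, Tm7sf2 and Hsd17b7 (0.0604 to 0.0781), and leaving out parental DMSO replicate 1 those of Lss, Tm7sf2 and Dhcr7 (0.113 to 0.319). Sqle and Dhcr7 were lost without knock-out CHIR99021 replicate 1 (0.0531 to 0.0729) or replicate 2 (0.0636 to 0.0763). With the compared groups alone, Sqle and Dhcr7 were lost too (adjusted p 0.0549 and 0.0605, edgeR). Every fitted log2 fold change of a called gene kept its sign.

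Markers of other cell types moved in the same libraries. The 5 mesoderm markers summed to 42.7 to 44.5 CPM in parental cells with CHIR99021 and to 2.86 to 3.99 CPM in the other 3 groups; T and Eomes rose, Mixl1 did not pass, and Mesp1 and Tbx6 were below 1 CPM in every library. The 10 markers of primitive and visceral endoderm summed to 10.7 to 12.5 CPM there and to 20.9 to 26.1 CPM elsewhere, with 1 called lower, Sox7. Its mean was 14.1 CPM in parental cells with DMSO and 4.745 CPM with CHIR99021. Gata4 means were 5.01 and 4.73 CPM in these groups, and 10.59 and 11.2 CPM in the knock-out with DMSO and CHIR99021. Sox17, Foxa2, Afp and Apoa1 were below 1 CPM in every library, and Ttr was at 0 throughout. The 5 neural markers summed to 9.39 to 9.45 CPM there and to 11.1 to 14.9 CPM elsewhere, with Sox1 and Pax6 called lower and Neurog2 at 0. The 5 fibroblast markers summed to 7.47 to 8.32 CPM there and to 5.11 to 5.93 CPM in parental cells with DMSO. In the knock-out their sum was higher, at 8.37 to 9.23 CPM with DMSO and 9.31 to 10.5 CPM with CHIR99021. Thy1, called higher in parental cells with CHIR99021, made up most of this sum. Its means were 3.84 and 6.07 CPM in parental cells with DMSO and CHIR99021, and 7.02 and 7.87 CPM in the knock-out. Col1a1 means were 1.58 and 1.64 CPM, and 1.53 and 1.85 CPM, in the same order. Col1a2 and Col3a1 were below 1 CPM in every library, and Postn was at 0. Of the 10 stem cell markers 7 fell and 1 rose in parental cells with CHIR99021, where 10.3% and 9.1% of all genes did. Their sum was 6250 CPM in parental cells with DMSO and 5670 to 5810 CPM with CHIR99021. In the knock-out the sum was 5830 to 6020 CPM with DMSO and lowest with CHIR99021, at 5550 to 5590 CPM. The part of these shifts in the lipid genes was not tested.

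**Figure D3:**
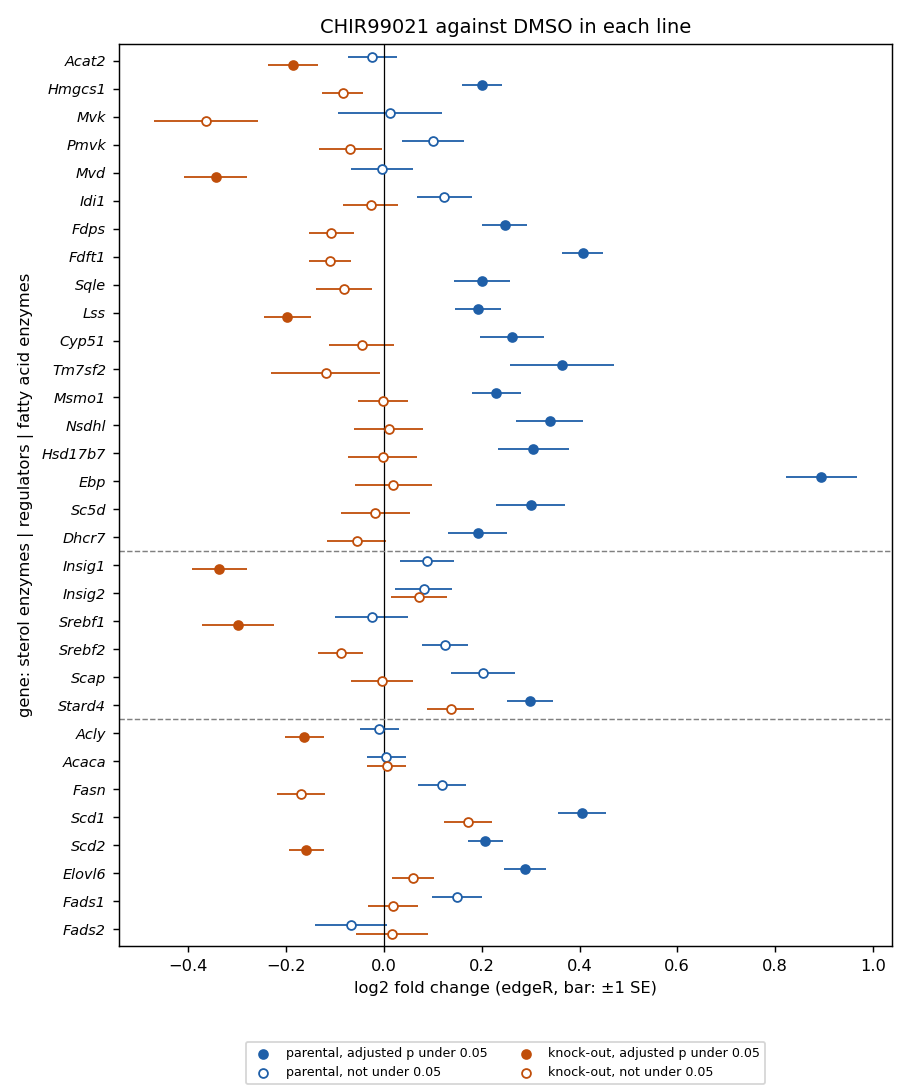
Log2 fold change of CHIR99021 against DMSO for each of the 32 genes (rows) in the parental line (blue) and the knock-out (orange), with bars of 1 SE; filled points have an adjusted p under 0.05. From Fdps to Dhcr7, a stretch chosen after the values were seen, all 12 blue points are filled and lie between 0.19 and 0.89. The orange points of these 12 lie between -0.20 and 0.02.

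CHIR99021 was then compared with DMSO in cells lacking β-catenin. No member of the 3 groups was called higher in the knock-out, and 7 of the 32 were called lower. These were the sterol enzymes Acat2, Mvd and Lss, the regulators Insig1 and Srebf1, and the fatty acid enzymes Acly and Scd2. Over all genes 7.06% were called, 2.88% higher and 4.18% lower. The median log2 fold change was -0.08 for the sterol enzymes, -0.05 for the regulators and 0.01 for the fatty acid enzymes, beside -0.003 over all genes. All 7 calls were lost without knock-out CHIR99021 replicate 1 (adjusted p 0.0501 to 0.192) or replicate 2 (0.0761 to 0.226), and Acat2, Mvd, Lss, Srebf1 and Acly also without knock-out DMSO replicate 1 (0.09 to 0.324). Without knock-out DMSO replicate 2, Lss, Srebf1 and Scd2 were lost (0.0567 to 0.0738). DESeq2 lost Acat2 and Lss (0.0611 to 0.11), the compared groups alone lost Acat2, Lss, Acly and Scd2 (0.0575 to 0.0788), and relative log expression factors lost Acat2 (0.054). Acat2 was lost as well without parental CHIR99021 replicate 1 (0.0778) or 2 (0.0726) and, with Srebf1, without parental DMSO replicate 2 (0.0523 to 0.0643), and Acat2, Lss, Srebf1 and Scd2 without parental DMSO replicate 1 (0.0503 to 0.0617).

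Next, the lines were compared in the same medium. In DMSO the knock-out had 6 of the 32 genes lower and none higher, Msmo1, Ebp, Insig1, Stard4, Scd1 and Scd2, where 6.75% of all genes were called, 3.62% lower and 3.13% higher. In CHIR99021 it had 16 of the 18 sterol enzymes, 2 of the 6 regulators and 6 of the 8 fatty acid enzymes lower, and Acaca higher, where 23.7% of all genes were called, 12.5% lower and 11.2% higher. The median log2 difference of the sterol enzymes was -0.07 in DMSO and -0.39 in CHIR99021, of the regulators 0.02 and -0.12, and of the fatty acid enzymes -0.09 and -0.25, beside 0.003 and 0.0007 over all genes. Acat2 and Hsd17b7 were the sterol enzymes that did not pass in CHIR99021; Acat2 passed with the compared groups alone, with no filter or without either knock-out DMSO library (adjusted p 0.0297 to 0.0308). Of the 25 calls in CHIR99021, 23 held under all 13 alternatives.

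The other calls between the lines were less steady. In CHIR99021, Mvk and Acaca were lost without parental CHIR99021 replicate 1 (adjusted p 0.225 to 0.251) or 2 (0.0563 to 0.0823), knock-out CHIR99021 replicate 1 (0.124 to 0.209) or 2 (0.0678 to 0.204), or parental DMSO replicate 1 (0.0541 to 0.0597) or 2 (0.0509 to 0.0762). DESeq2 called neither (0.108 and 0.159), and Acaca was lost too with no filter (0.0924) or the compared groups alone (0.0536). In DMSO, all 6 calls were lost without parental DMSO replicate 1 (0.0762 to 0.318), all but that of Ebp without its replicate 2 (0.0507 to 0.0875), and all but that of Scd2 without knock-out DMSO replicate 1 (0.0521 to 0.234). Msmo1, Ebp and Scd1 were lost without knock-out DMSO replicate 2 (0.0664 to 0.145), and Msmo1 and Insig1 without any 1 of the 4 CHIR99021 libraries (0.0502 to 0.0844), with Scd1 among them for either parental one (0.0562 and 0.0563). DESeq2 lost Msmo1, Ebp and Insig1 (0.101 to 0.192), the compared groups alone lost Msmo1, Ebp, Insig1 and Scd1 (0.0617 to 0.088), and relative log expression factors lost Insig1 (0.0511). The comparisons share libraries: the parental CHIR99021 libraries enter both the first comparison and this one, so their counts are not separate evidence.

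**Figure D4:**
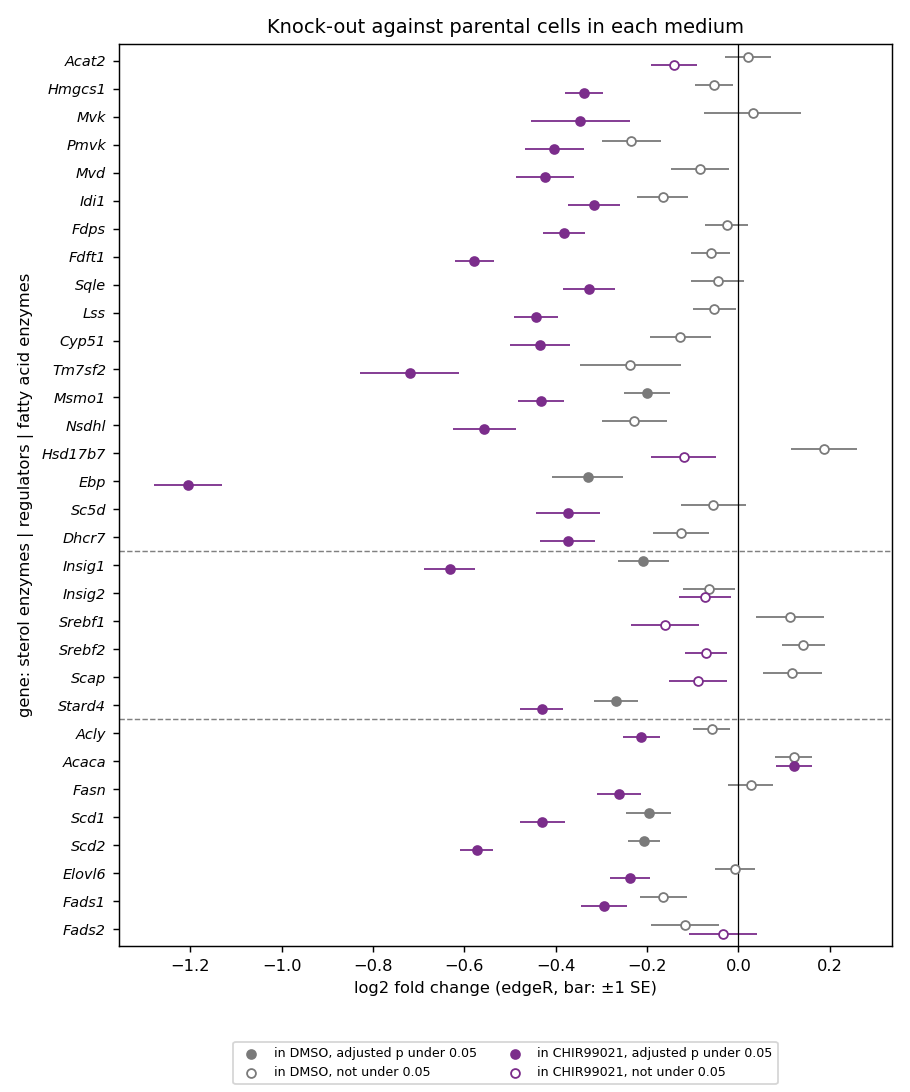
Log2 difference of the knock-out from parental cells for each of the 32 genes (rows) in DMSO (grey) and in CHIR99021 (purple), with bars of 1 SE; filled points have an adjusted p under 0.05. In CHIR99021 the 18 sterol enzymes lie between -1.21 and -0.12, and in DMSO between -0.33 and 0.19.

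The enzymes of the mevalonate part differed among themselves. Hmgcs1 makes HMG-CoA and was at 229.4 and 220.4 CPM in parental cells with DMSO, 257.3 and 259.3 with CHIR99021, 211.3 and 222.1 in the knock-out with DMSO and 201 and 207.7 with CHIR99021. Both parental libraries with CHIR99021 lay above all others, a rise of 0.20 ± 0.04 (log2 fold change ± SE; adjusted p = 0.00572), and the difference of the knock-out from parental cells in CHIR99021 was -0.34 on that scale (adjusted p = 0.000157). Acat2, the thiolase that joins acetyl-CoA units, was at 131.1 and 124.7 (parental, DMSO), 125.1 and 126.5 (parental, CHIR99021), 136 and 123.4 (knock-out, DMSO) and 114 and 114.1 CPM (knock-out, CHIR99021). Its parental groups overlapped (-0.02 ± 0.05; adjusted p = 0.798), and it fell in the knock-out with CHIR99021 (-0.19 ± 0.05; adjusted p = 0.0497). Of the 31-base words in its annotated transcripts, 43.7% also occur in other genes, all of those in Acat3, so reads of both may be shared and its values are uncertain.

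Mvk, Pmvk and Mvd phosphorylate mevalonate and turn it into isopentenyl diphosphate. Mvd stood at 47.78 and 44.81 CPM in parental cells with DMSO, 46.97 and 45.37 with CHIR99021, 46.15 and 41.2 in the knock-out with DMSO and 34.59 and 34.25 with CHIR99021. Its parental groups overlapped, and both knock-out libraries with CHIR99021 were the lowest of the 8, a fall of -0.34 ± 0.06 (adjusted p = 0.0112). Mvk values were 21.16 and 21.54 (parental, DMSO), 22.56 and 20.49 (parental, CHIR99021), 24.43 and 19.15 (knock-out, DMSO) and 16.12 and 17.8 CPM (knock-out, CHIR99021). They spread widely within the knock-out with DMSO, and the difference between the lines in CHIR99021 was -0.35 ± 0.11 (adjusted p = 0.0383). For Pmvk the values were 53.19 and 53.49 CPM in parental cells with DMSO, 56.74 and 57.62 with CHIR99021, 48.07 and 42.57 in the knock-out with DMSO and 45.04 and 41.4 with CHIR99021; the knock-out was lower in CHIR99021 (-0.40 ± 0.06; adjusted p = 0.00105), and the response in parental cells did not pass (0.10 ± 0.06; adjusted p = 0.322). The isomerase gene Idi1 was at 136.3 and 130.8 (parental, DMSO), 140.7 and 150.3 (parental, CHIR99021), 116.5 and 121.6 (knock-out, DMSO) and 110.8 and 123 CPM (knock-out, CHIR99021). It too was lower in the knock-out in CHIR99021 (-0.32 ± 0.06; adjusted p = 0.00198) with no call in parental cells (0.12 ± 0.06; adjusted p = 0.158). Idi1 shares 18.8% of its 31-base words with other genes, nearly all with Gm13502.

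At the branch to sterols, Fdps makes farnesyl diphosphate and Fdft1, squalene synthase, joins a pair of them. Fdft1 was at 86.46 and 85.81 CPM in parental cells with DMSO, 117.2 and 111.1 with CHIR99021, 82.98 and 82.13 in the knock-out with DMSO and 76.68 and 76.27 with CHIR99021. The replicates lay close together, with the parental CHIR99021 libraries above and the knock-out CHIR99021 libraries below all others. It rose by 0.41 ± 0.04 in parental cells (adjusted p = 5.02e-05), was at -0.11 ± 0.04 in the knock-out (adjusted p = 0.149) and differed between the lines in CHIR99021 by -0.58 ± 0.04 (adjusted p = 3.47e-06). Fdps followed the same order at 121 and 116.3 (parental, DMSO), 145.8 and 135.8 (parental, CHIR99021), 118.1 and 114.9 (knock-out, DMSO) and 109.1 and 107.2 CPM (knock-out, CHIR99021). Its rise in parental cells was 0.25 ± 0.05 (adjusted p = 0.00314), and the difference between the lines in CHIR99021 was -0.38 ± 0.05 (adjusted p = 0.000146). Shared words limit both: 27.9% for Fdps, most with Gm43738, which overlaps the gene, and 14.3% for Fdft1 with Gm6781; Fdft1 also overlaps Ctsb on the opposite strand.

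Squalene is oxidised by Sqle and closed to lanosterol by Lss. Lss went from 66.89 and 68.75 to 79.26 and 75.77 CPM with CHIR99021 in parental cells and from 66.31 and 64.47 to 58.03 and 55.95 CPM in the knock-out. Neither pair of groups overlapped, and both changes passed, in opposite directions (0.19 ± 0.05 with adjusted p = 0.0154, and -0.20 ± 0.05 with adjusted p = 0.0318). Sqle was at 77.32 and 68.51 CPM in parental cells with DMSO, 84.97 and 82.5 with CHIR99021, 69.17 and 72.14 in the knock-out with DMSO and 66.13 and 67.39 with CHIR99021. Parental CHIR99021 was again the highest group, at 0.20 ± 0.06 against DMSO (adjusted p = 0.0326), and the knock-out was lower in CHIR99021 (-0.33 ± 0.06; adjusted p = 0.00195).

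Lanosterol is then stripped of methyl groups by Cyp51, Msmo1, Nsdhl and Hsd17b7. All 4 rose in parental cells, by 0.26 ± 0.07, 0.23 ± 0.05, 0.34 ± 0.07 and 0.31 ± 0.07 (adjusted p = 0.0174, 0.00786, 0.00522 and 0.0127). Nsdhl was at 29.15 and 29.38 CPM in parental cells with DMSO, 36.36 and 37.68 with CHIR99021, 26.68 and 23.27 in the knock-out with DMSO and 24.97 and 25.37 with CHIR99021. Msmo1 was at 87.62 and 83.44 (parental, DMSO), 100.9 and 99.6 (parental, CHIR99021), 72.5 and 76.37 (knock-out, DMSO) and 71.78 and 76.96 CPM (knock-out, CHIR99021), and was lower in the knock-out in DMSO too (-0.20 ± 0.05; adjusted p = 0.0392). Cyp51 had 55.9 and 48.92 (parental, DMSO), 63.21 and 62.43 (parental, CHIR99021), 46.48 and 49.48 (knock-out, DMSO) and 45.18 and 47.81 CPM (knock-out, CHIR99021). In CHIR99021 the knock-out lay below parental cells by -0.56 ± 0.07 for Nsdhl, -0.43 ± 0.05 for Msmo1 and -0.43 ± 0.07 for Cyp51 (adjusted p = 0.000179, 0.000109 and 0.000725). Hsd17b7 departed from them. Its values were 17.94 and 16.76 CPM in parental cells with DMSO, 21.11 and 21.79 with CHIR99021, 19.83 and 19.68 in the knock-out with DMSO and 18.82 and 20.66 with CHIR99021, so both knock-out libraries stood above the parental ones in DMSO, a difference that did not pass (0.19 ± 0.07; adjusted p = 0.164) or in CHIR99021 (-0.12 ± 0.07; adjusted p = 0.254).

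Ebp, the isomerase that shifts a double bond in the sterol ring, had the largest change of the 32 genes in 4 of the 5 comparisons, all but CHIR99021 against DMSO in the knock-out. It was at 23.44 and 20.71 CPM in parental cells with DMSO, 42.18 and 39.85 with CHIR99021, 18.2 and 16.9 in the knock-out with DMSO and 17.47 and 18.11 with CHIR99021. The parental CHIR99021 libraries were far above the other 6, and the knock-out groups overlapped. Its log2 fold change with CHIR99021 was 0.89 ± 0.07 in parental cells (adjusted p = 7.91e-06) and 0.02 ± 0.08 in the knock-out (adjusted p = 0.92). Between the lines it differed by -0.33 ± 0.08 in DMSO (adjusted p = 0.0306) and by -1.21 ± 0.07 in CHIR99021 (adjusted p = 8.78e-07), the only one of the 32 to differ more than 2-fold in any comparison. None of its 31-base words occurs in another annotated gene.

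The remaining enzymes are the reductases Tm7sf2 and Dhcr7, which act on the sterol ring and the last double bond of one branch, and the desaturase Sc5d. Tm7sf2 was the lowest of the 32 genes in CPM, at 11.81 and 12.86 CPM in parental cells with DMSO, 16.4 and 15.35 with CHIR99021, 11.42 and 9.499 in the knock-out with DMSO and 10.3 and 8.959 with CHIR99021. After Ebp it had the second largest difference between the lines in CHIR99021, -0.72 ± 0.11 (adjusted p = 0.000681), and it rose by 0.36 ± 0.11 in parental cells (adjusted p = 0.0349). It overlaps Vps51, which shares 10.7% of its 31-base words. Sc5d was at 17.64 and 16.97 (parental, DMSO), 22.22 and 20.36 (parental, CHIR99021), 16.53 and 16.79 (knock-out, DMSO) and 16.34 and 16.57 CPM (knock-out, CHIR99021) and Dhcr7 at 47.39 and 51.7 (parental, DMSO), 58.73 and 54.4 (parental, CHIR99021), 46.48 and 44.33 (knock-out, DMSO) and 44.22 and 43.13 CPM (knock-out, CHIR99021). In both, parental cells with CHIR99021 formed the top group, with rises of 0.30 ± 0.07 and 0.19 ± 0.06 (adjusted p = 0.0116 and 0.0474), and the knock-out lay lower in CHIR99021 by -0.37 ± 0.07 and -0.37 ± 0.06 (adjusted p = 0.00275 and 0.00112).

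Among the regulators the SREBP genes themselves had no call in parental cells with CHIR99021. Srebf2, which encodes SREBP2, was at 170.9 and 175.8 CPM in parental cells with DMSO, 191.4 and 186.6 with CHIR99021, 197.9 and 184.6 in the knock-out with DMSO and 184.9 and 174.9 with CHIR99021 and passed in none of the 5 comparisons (adjusted p 0.0859 to 0.283 for CHIR99021 against DMSO in the 2 lines); with no filter or without knock-out DMSO replicate 2 its response differed between the lines (adjusted p 0.0352 and 0.0417). Srebf1 was at 57.91 and 58.75 (parental, DMSO), 62.45 and 52.1 (parental, CHIR99021), 64.57 and 61.61 (knock-out, DMSO) and 52.74 and 49.81 CPM (knock-out, CHIR99021); its parental CHIR99021 libraries lay on either side of those with DMSO, and it fell in the knock-out (-0.30 ± 0.07; adjusted p = 0.036). For the escort gene Scap the levels were 35.76 to 43.75 CPM over the 8 libraries, with 0.20 ± 0.06 in parental cells (adjusted p = 0.0505; 0.0371 to 0.0474 with relative log expression size factors, with no filter, or without knock-out DMSO replicate 1 or 2 or parental DMSO replicate 2). Insig2 was at 25.7 to 29.19 CPM and passed in no comparison.

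The other 2 regulators differed from each other. In its response to CHIR99021 Insig1 went with Srebf1, with no call in parental cells and a fall in the knock-out. Insig1, an SREBP target that feeds back on it, was at 60.57 and 56.93 CPM in parental cells with DMSO, 62.64 and 62.18 with CHIR99021, 48.8 and 52.95 in the knock-out with DMSO and 40.74 and 39.77 with CHIR99021. The knock-out libraries with CHIR99021 were the lowest by a wide margin, and the parental groups differed little. It fell in the knock-out (-0.34 ± 0.06; adjusted p = 0.00611), while the difference in parental cells did not pass (0.09 ± 0.06; adjusted p = 0.314). Between the lines it was at -0.21 ± 0.06 in DMSO (adjusted p = 0.0489, called in 2 of 13 alternatives) and -0.63 ± 0.06 in CHIR99021 (adjusted p = 1.48e-05). Stard4, a sterol carrier of the cytosol, was at 51.47 and 51.16 CPM in parental cells with DMSO, 62.9 and 63.35 with CHIR99021, 41.91 and 43.34 in the knock-out with DMSO and 46.03 and 47.65 with CHIR99021. In each line both CHIR99021 libraries lay above those with DMSO, a difference that passed in parental cells (0.30 ± 0.05; adjusted p = 0.00111) and not in the knock-out (0.14 ± 0.05; adjusted p = 0.12). A lower level in the knock-out passed in DMSO (-0.27 ± 0.05; adjusted p = 0.00869) and in CHIR99021 (-0.43 ± 0.05; adjusted p = 7.78e-05).

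The fatty acid enzymes are taken from the first steps onward. In parental cells with CHIR99021 the calls were all of later enzymes, Scd1, Scd2 and Elovl6. In the knock-out with CHIR99021, and between the lines in CHIR99021, early and later enzymes were both called. Acly, Acaca and Fasn make acetyl-CoA from citrate, carboxylate it and build palmitate. None of these 3 passed in parental cells with CHIR99021 (-0.01 ± 0.04, 0.005 ± 0.04 and 0.12 ± 0.05; adjusted p = 0.898, 0.955 and 0.118); Fasn passed with the compared groups alone and without knock-out DMSO replicate 2 (adjusted p 0.0441 and 0.0444). Acly was at 435.8 and 415.3 CPM in parental cells with DMSO, 418.3 and 427 with CHIR99021, 416.6 and 400.4 in the knock-out with DMSO and 369.9 and 359.6 with CHIR99021. It fell in the knock-out (-0.16 ± 0.04; adjusted p = 0.0331) and was lower than in parental cells in CHIR99021 (-0.21 ± 0.04; adjusted p = 0.00285). Fasn was at 544.4 and 550.2 (parental, DMSO), 602 and 586.1 (parental, CHIR99021), 583.5 and 531.4 (knock-out, DMSO) and 511.4 and 479.5 CPM (knock-out, CHIR99021). Its knock-out libraries with DMSO spanned those of the parental cells, and the difference between the lines in CHIR99021 was -0.26 ± 0.05 (adjusted p = 0.00266). The response of Fasn in the knock-out, -0.17 ± 0.05 (adjusted p = 0.0614), passed in 4 of 13 alternatives, among them DESeq2, no filter and leaving out knock-out DMSO replicate 2 (adjusted p 0.000691 to 0.0178). Acaca was at 132.1 and 130.8 CPM in parental cells with DMSO, 129.6 and 134.2 with CHIR99021, 145.1 and 140.8 in the knock-out with DMSO and 142.1 and 144.9 with CHIR99021, higher in the knock-out in CHIR99021 (0.12 ± 0.04; adjusted p = 0.0476), a call that held in 3 of 13 alternatives. Of its 31-base words 33.4% occur elsewhere, nearly all in Gm5182.

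The other fatty acid enzymes are desaturases and an elongase. Scd1 and Scd2 put the first double bond into saturated acyl chains and Elovl6 lengthens palmitate. Scd2 was at 606.9 and 602.2 CPM in parental cells with DMSO, 700.1 and 695.4 with CHIR99021, 510.8 and 536.7 in the knock-out with DMSO and 471.5 and 466.8 with CHIR99021, 4 groups with no overlap. It rose in parental cells (0.21 ± 0.04; adjusted p = 0.00196), fell in the knock-out (-0.16 ± 0.04; adjusted p = 0.0252) and was the only 1 of the 32 called in all 5 comparisons. Scd1 was at 123.3 and 116.3 (parental, DMSO), 156.7 and 160.5 (parental, CHIR99021), 102.6 and 106.5 (knock-out, DMSO) and 122 and 113.5 CPM (knock-out, CHIR99021). It rose in parental cells (0.40 ± 0.05; adjusted p = 0.000142), and its value of 0.17 ± 0.05 in the knock-out did not pass (adjusted p = 0.0612; 0.0193 with no filter). Per kilobase of merged exons in parental cells with DMSO, Scd2 was at 110.7 CPM and Scd1 at 24.49. Both lie on chromosome 19, and Scd2 shares 6.81% and Scd1 8.14% of its 31-base words with other genes, mostly Scd3. Elovl6 was at 150.7 and 150.5 CPM in parental cells with DMSO, 180.3 and 187.7 with CHIR99021, 148.4 and 151.1 in the knock-out with DMSO and 161.1 and 151 with CHIR99021. It was called higher in parental cells (0.29 ± 0.04, adjusted p = 0.000741) and had no call in the knock-out (0.06 ± 0.04, adjusted p = 0.452). The difference between these responses did not pass (-0.23 ± 0.06, adjusted p = 0.0527, edgeR).

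Fads1 and Fads2 make polyunsaturated fatty acids and also lie on chromosome 19. Fads1 was at 60.23 and 60.91 CPM in parental cells with DMSO, 66.47 and 67.82 with CHIR99021, 55.25 and 52.84 in the knock-out with DMSO and 56.68 and 52.79 with CHIR99021, lower in the knock-out in CHIR99021 (-0.29 ± 0.05; adjusted p = 0.00176), with 0.15 ± 0.05 in parental cells (adjusted p = 0.0659). Fads2 ranged from 23.73 to 27.05 CPM over the 8 libraries and passed in no comparison.

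Whether the response to CHIR99021 itself differed between the lines was tested last. In the interaction, the response in the knock-out minus that in parental cells, 8 of the 32 genes passed, all with a lower response in the knock-out, where 6.13% of all genes were called, 2.91% lower and 3.22% higher. They were 5 sterol enzymes, Hmgcs1, Fdps, Fdft1, Lss and Ebp, the regulator Insig1 and the fatty acid enzymes Fasn and Scd2. The value was negative for all 18 sterol enzymes, all 6 regulators and 6 of the 8 fatty acid enzymes, with medians of -0.31, -0.21 and -0.19, beside -0.001 over all genes. Ebp was at -0.88 ± 0.11 (adjusted p = 0.000606), Fdft1 at -0.52 ± 0.06 (adjusted p = 0.000436), Lss at -0.39 ± 0.07 (adjusted p = 0.00518) and Scd2 at -0.37 ± 0.05 (adjusted p = 0.00134). These 4 passed under all 12 alternatives. Insig1 was at -0.42 ± 0.08, Fdps at -0.35 ± 0.07, Fasn at -0.29 ± 0.07 and Hmgcs1 at -0.28 ± 0.06 (adjusted p = 0.00834, 0.00779, 0.031 and 0.0149).

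The calls of Fdps, Insig1 and Fasn in this comparison were lost without knock-out CHIR99021 replicate 2 (adjusted p 0.0529 to 0.14), and that of Hmgcs1 without its replicate 1 (0.0686). Hmgcs1 and Fasn were lost without parental CHIR99021 replicate 1 (0.0532 to 0.11) or parental DMSO replicate 2 (0.0688 to 0.0841), and Fasn without parental DMSO replicate 1 (0.113), parental CHIR99021 replicate 2 (0.0546) or knock-out DMSO replicate 1 (0.08). Without knock-out DMSO replicate 2, the number of sterol enzymes called went from 5 to 9. For the genes called in parental cells but not in the interaction, such as Scd1 (-0.23 ± 0.07; adjusted p = 0.0757), Stard4 (-0.16 ± 0.07; adjusted p = 0.202) and Nsdhl (-0.33 ± 0.10; adjusted p = 0.0799), a difference in response between the lines was not shown. Nsdhl passed with no filter (0.0401) or without knock-out DMSO replicate 2 (0.021), Scd1 with no filter (0.0288), and Stard4 under none of the 12 alternatives.

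**Figure D5:**
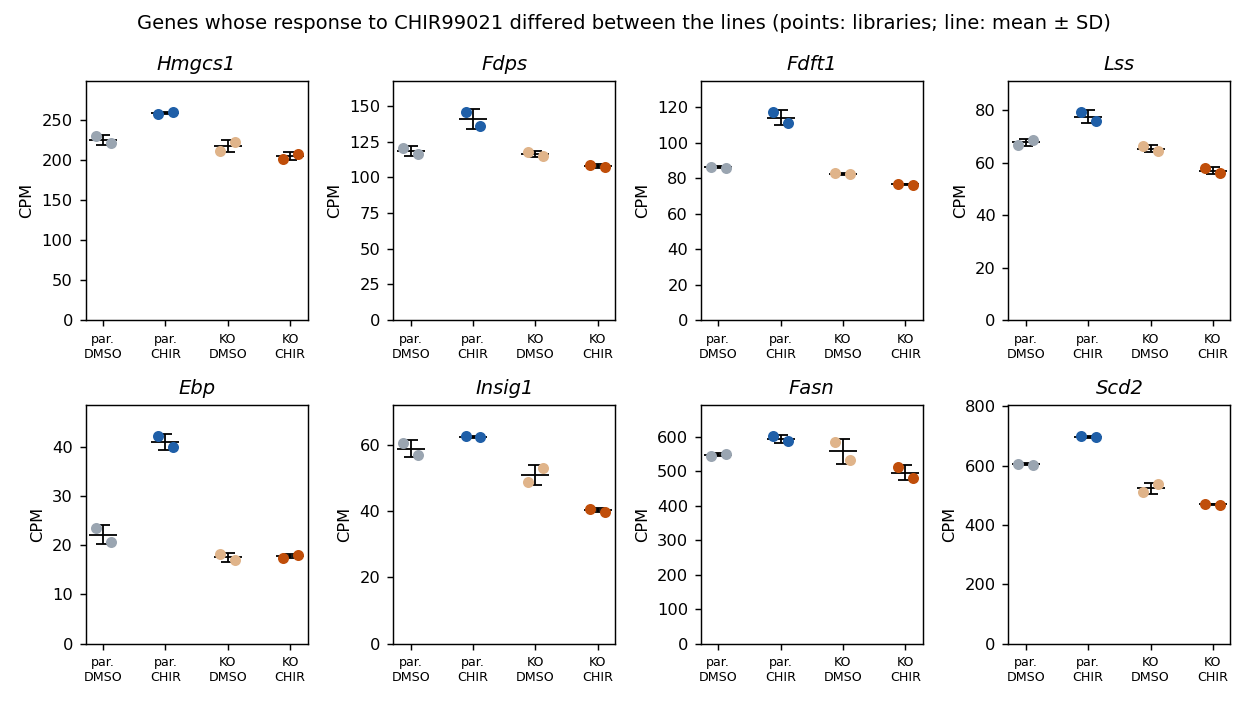
CPM (y axis, from 0) of the 8 genes whose response differed between the lines, in parental (par.) and knock-out (KO) cells with DMSO or CHIR99021 (CHIR); points are libraries, lines the mean with 1 SD (n = 2). Ebp goes from 23.44 and 20.71 to 42.18 and 39.85 CPM in parental cells and lies between 16.9 and 18.2 CPM in the knock-out.

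Other genes of the pathway were read from lists. Of 20 measured genes of sterol transport, storage and efflux (21 listed), 5 rose and 4 fell in parental cells with CHIR99021, or 25% and 20% beside 9.1% and 10.3% of all genes. Abca1, which exports cholesterol from the cell, fell, with a log2 fold change of -1.24 ± 0.06 (adjusted p = 1.85e-07), and fell in the knock-out with -0.31 ± 0.06 (adjusted p = 0.013), and the responses differed (0.93 ± 0.09; adjusted p = 8.47e-05). Abcg1, its partner in efflux, was at -1.06 ± 0.15 in parental cells (adjusted p = 0.000601) and -0.62 ± 0.15 in the knock-out (adjusted p = 0.0295). The lysosomal cholesterol carriers parted: Npc2 rose by 0.67 ± 0.05 (adjusted p = 1.97e-06) and Npc1 was at -0.33 ± 0.06 (adjusted p = 0.002).

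None of the 14 genes of SREBP processing and sterol sensing passed in parental cells (edgeR), beside 19.4% of all genes. Of the 14, 3 had an unadjusted p under 0.05. In the knock-out 2 of them passed, or 14.3% beside 7.06% of all genes. Pgrmc1 rose there (0.23 ± 0.06; adjusted p = 0.0398) and Nfyc, a subunit of NF-Y, fell (-0.22 ± 0.05; adjusted p = 0.0251). Of 10 genes of the isoprenoid branches 1 rose in parental cells (10%, beside 9.1% of all genes), and 2 were lower in the knock-out in CHIR99021 (20%, beside 12.5%). Fatty acid supply and elongation gave 9 higher and 2 lower of 29 measured genes (30 listed) in parental cells, or 31% and 6.9% beside 9.1% and 10.3% of all genes. Between the lines in CHIR99021, 12 of them were lower and 4 higher in the knock-out, or 41.4% and 13.8% beside 12.5% and 11.2% of all genes. Me1, malic enzyme, which supplies NADPH, rose in both lines, by 0.75 ± 0.08 (adjusted p = 8.02e-05) and 0.59 ± 0.08 (adjusted p = 0.00276). Hacd2 and Tecr, which complete each round of elongation, rose in parental cells by 0.45 ± 0.07 and 0.24 ± 0.05 (adjusted p = 0.000936 and 0.00341), and for Tecr the interaction passed (-0.33 ± 0.06; adjusted p = 0.01).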

How the data were processed

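Polyadenylated RNA (TruSeq Stranded mRNA kit) was measured in 8 libraries, 4 groups of 2. The authors deposited 1 table of expected counts, estimated reads per Ensembl gene made with kallisto on GRCm38.p4 per the submitters' processing notes; the version, the transcript set and the strand setting are not given in the sources used here. No reads were reprocessed. Estimated counts were rounded, genes kept with edgeR 4.0.16 filterByExpr (10 counts, 15 in total), normalised with TMM factors and fitted by quasi-likelihood with 1 mean per group over all 8 libraries (4 residual degrees of freedom). The 5 comparisons were tested 2-sided with Benjamini-Hochberg adjustment over 17739 genes at 0.05. The SE was obtained by dividing the size of the log2 fold change by the square root of F. The procedure was also run on simulated counts with changes planted in parental cells with CHIR99021 only. That run did not cover the other comparisons.

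Columns were matched to libraries by title. GENCODE M21 (GRCm38) gave positions and transcripts for 32 of 32 genes: 17 overlap another gene, 11 of them on the opposite strand, and 9 share over 5% of their 31-base words with other genes, so their reads may be shared. No 2 replicates agreed within counting noise (chi-square over its degrees of freedom 3.23 to 4.75). Alternatives were DESeq2 1.42.0, relative log expression size factors, no filter, the compared groups alone, a replicate block and leaving out each library in turn, where a group left with 1 library takes its spread from the other groups. Members, lists and tests were chosen with earlier results of these data known. Named genes were all 32 members, with values in every library for those called in any comparison, and up to 4 genes of each other list with the smallest adjusted p.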

Additional observations from a re-analysis of the deposited data

Results flagged for a closer look

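The response to CHIR99021 differed between the parental and the knock-out line for 8 genes, by the interaction test of edgeR over all 17739 genes. The differences, knock-out minus parental on the log2 scale, were -0.28 for Hmgcs1, -0.35 for Fdps, -0.52 for Fdft1, -0.39 for Lss, -0.88 for Ebp, -0.42 for Insig1, -0.29 for Fasn and -0.37 for Scd2. Lss and Scd2 passed the test in each line, upward in parental cells and downward in the knock-out, but the knock-out calls held in 6 of 13 alternatives for Lss and 8 of 13 for Scd2. Both were lost with the compared groups alone (adjusted p 0.0575 and 0.0788) and without either knock-out CHIR99021 library. DESeq2 lost Lss in both lines (adjusted p 0.11 in the knock-out, 0.0845 in parental cells). Groups of 2 libraries are too small for a test of single outlying libraries.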

How the results depend on the processing

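Of 192 counts of called genes over 3 gene groups, 5 comparisons and the alternatives, 125 stayed within 1.5 times the main count, 67 did not, and none changed direction. DESeq2 called 7 sterol enzymes (13 in the main fit) in parental cells with CHIR99021, 1 (3) in the knock-out, and, between the lines in DMSO, 0 (2) sterol enzymes and 1 (2) regulator; it called 2023, 734, 692, 2482 and 662 genes in the 5 comparisons, against 3441, 1252, 1198, 4200 and 1087. Relative log expression factors gave 2 (1) regulators in parental cells and 1 (2) between the lines in DMSO. With no filter there were 2 (1) regulators in parental cells, 4 (2) fatty acid enzymes in the knock-out, 5 (2) sterol enzymes between the lines in DMSO and, in the interaction, 11 (5) sterol enzymes, 3 (1) regulators and 4 (2) fatty acid enzymes, with 2167, 2064 and 1990 genes called in all in the knock-out, between the lines in DMSO and in the interaction. The compared groups alone gave 1 (3) sterol and 0 (2) fatty acid enzymes in the knock-out, and 0 (2) sterol enzymes, 1 (2) regulator and 1 (2) fatty acid enzyme between the lines in DMSO. In the main fit 6 sterol enzymes between the lines in DMSO and 4 fatty acid enzymes in the knock-out had an unadjusted p under 0.05.

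Leaving out each library in turn gave 5 to 13 sterol enzymes, 1 to 2 regulators and 3 to 4 fatty acid enzymes in parental cells; 0 to 3, 0 to 2 and 0 to 2 in the knock-out; 0 to 2, 0 to 2 and 0 to 2 between the lines in DMSO; 15 to 17, 2 to 3 and 6 to 7 between them in CHIR99021; and 4 to 9, 0 to 2 and 1 to 3 in the interaction. With the replicate block, the count of regulators between the lines in DMSO was 1 (2), and all other counts stayed within 1.5 times. It lost Dhcr7 in parental cells (adjusted p 0.05 as rounded), Insig1 between the lines in DMSO (0.0545) and Acaca in CHIR99021 (0.0624), and gained Fasn in the knock-out (0.0366), Mvd in the interaction (0.0257) and Pmvk between the lines in DMSO (0.0405). Libraries of the same number did not deviate together (r across genes -0.056 to 0.104 over 6 pairs of groups), so the numbers were not taken to pair them. Of 2048 values of single genes, 139 lost a call, 46 gained one and none reversed. Depth limited little, as all but Tm7sf2 were above 10 CPM in every library.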

Other observations

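Genes of neighbouring lipid pathways were also read. Of 10 genes of glycerolipid synthesis 3 rose and none fell in parental cells with CHIR99021, where 9.1% of all genes were called higher, and 4 were lower in the knock-out in CHIR99021, where 12.5% of all genes were. Lpin1, a phosphatidate phosphatase, rose by 0.64 ± 0.06 (adjusted p = 1.16e-05, edgeR) and Agpat2, an acyltransferase of phosphatidate synthesis, by 0.40 ± 0.07 (adjusted p = 0.00228). Their responses were lower in the knock-out, with interaction values of -0.44 ± 0.08 and -0.59 ± 0.10 (adjusted p = 0.0062 and 0.005).

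The 17 genes of mitochondrial fatty acid oxidation went both ways in parental cells, 3 higher and 3 lower (17.6% each, beside 9.1% and 10.3% of all genes), with a median log2 fold change of 0.02. Cpt1a, which admits fatty acids to mitochondria for breakdown, rose by 0.57 ± 0.04 (adjusted p = 2.22e-06) and by 0.25 ± 0.04 in the knock-out (adjusted p = 0.00476), with an interaction of -0.32 ± 0.06 (adjusted p = 0.00577). Acads, a dehydrogenase for short chains, rose in parental cells (0.25 ± 0.05; adjusted p = 0.00473), and Etfb, which passes on electrons from such enzymes, was at -0.30 ± 0.05 (adjusted p = 0.00207).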
